A study of Mus musculus with 8 samples.

Results

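The interleukin-1 and interleukin-18 family is described here by 10 genes, chosen by symbol out of 55487 genes measured. They are the ligands Il1a, Il1b, Il18 and Il33, the soluble antagonists Il1rn and Il18bp, and the receptor chains Il1r1, Il1rap, Il18r1 and Il18rap. All 10 symbols were present, and 9 of the 10 had enough counts to be tested, the exception being Il1b. RNA was measured by bulk sequencing in 4 cell lines from mouse lung squamous cell carcinoma (LUSC), grown out of engineered tumour models, in a series on loss of ACKR3, an atypical chemokine receptor. Each line had 2 libraries. PLA and PLA4 make up the PLA lines, and PL12 and PL1 make up the PL lines. The labels give the line names but do not spell out the letters, and they state no treatment, clone or passage. Whether the 2 libraries of a line are separate cultures is not stated, and the p-values therefore reflect a spread between libraries that may be technical.

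Family members signal through paired receptor chains. A ligand binds its own chain (IL1R1 for IL-1 alpha and IL-1 beta, IL18R1 for IL-18, ST2 for IL-33), and an accessory chain then joins (IL-1RAP for IL-1 and IL-33, IL-18RAP for IL-18), after which MYD88 and IRAK kinases activate NF-kB. Caspase-1 of the inflammasome cleaves the precursors of IL-1 beta and IL-18, whereas IL-1 alpha and IL-33 are active as alarmins released from damaged cells, and squamous epithelia are known to store IL-1 alpha, IL-18 and IL-33. The measurements below are of RNA alone and carry no information on cleavage or secretion.

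The promoters of 4 members are shown, since those members gave the differences described below: Il1a, Il33 and Il18 as the epithelial ligands, and Il18rap as the member called between the PLA and PL lines in every alternative run on single libraries. Each sequence is the 250 bases before the RefSeq start on GRCm38.p6, read 5′ to 3′ on the gene's strand. Capitals mark matches on either strand to 4 motifs: TGANTCA (AP-1), GAGGAA (a core of ETS-factor sites), TATAAA (the box bound by TBP) and the NF-kB consensus. Il1a lies on the minus strand with its window at chr2:129309973-129310222, and the other 3 lie on the plus strand, with windows at chr9:50554450-50554699 (Il18), chr1:40515112-40515361 (Il18rap) and chr19:29924863-29925112 (Il33, the first of its starts).
Il1a: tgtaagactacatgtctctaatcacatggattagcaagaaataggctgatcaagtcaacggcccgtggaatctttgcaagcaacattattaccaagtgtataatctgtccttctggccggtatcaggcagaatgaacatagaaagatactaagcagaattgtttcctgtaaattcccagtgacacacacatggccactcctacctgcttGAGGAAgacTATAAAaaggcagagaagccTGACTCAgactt
Il18: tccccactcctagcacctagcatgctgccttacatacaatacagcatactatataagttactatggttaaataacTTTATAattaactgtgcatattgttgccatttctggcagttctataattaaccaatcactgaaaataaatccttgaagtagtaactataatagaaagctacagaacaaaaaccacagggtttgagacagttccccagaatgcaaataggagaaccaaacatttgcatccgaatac
Il18rap: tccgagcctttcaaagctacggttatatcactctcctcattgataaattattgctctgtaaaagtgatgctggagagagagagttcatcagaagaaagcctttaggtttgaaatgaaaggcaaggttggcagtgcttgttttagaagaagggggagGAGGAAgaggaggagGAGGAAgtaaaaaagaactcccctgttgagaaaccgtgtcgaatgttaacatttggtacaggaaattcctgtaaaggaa
Il33: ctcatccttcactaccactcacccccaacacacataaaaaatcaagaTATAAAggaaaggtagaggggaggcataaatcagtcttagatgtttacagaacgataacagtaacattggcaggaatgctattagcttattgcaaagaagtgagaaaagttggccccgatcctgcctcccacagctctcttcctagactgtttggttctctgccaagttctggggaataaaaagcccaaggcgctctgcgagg
The Il1a window held GAGGAA at -41 to -36, TATAAA at -32 to -27 and TGACTCA at -12 to -6, with no overlap between them. The Il18rap window held GAGGAA at -94 to -89 and again at -79 to -74. The Il18 and Il33 windows held TATAAA alone, in Il18 on the opposite strand at -175 to -170 and in Il33 at -203 to -198. The window of a later Il33 start, from chr19:29945540 and not printed, held TATAAA at -29 to -24. Among 32851 RefSeq promoter windows of this length, 23.3% held GAGGAA, 12.4% TATAAA, 6.75% TGANTCA and 3.90% the NF-kB consensus. All 10 members had a RefSeq window, 16 windows in all, and the NF-kB consensus was matched in the second window of Il1r1. A match describes letters and not a used site.

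The libraries held 48857960 to 142458281 counts, and a floor of 3 counts corresponded to 0.0208 to 0.0614 CPM (counts scaled to library size). Ackr3 served to check the names, and was at 0.0254 to 0.387 CPM in PLA-line libraries and at 25.3 to 86.3 CPM in PL-line libraries. The 2 libraries of PL1 and of PLA4 stood apart from each other, as is shown for the members below. The epithelial origin was checked with 10 squamous markers (Trp63, keratins, desmosomal genes, Sox2), whose summed level was 17333 to 24782 CPM among PLA-line libraries and 11333 to 21376 CPM in PL1, but 2623 and 2654 CPM in PL12. By the criterion given below, 1 of the 10 was called higher in the PLA lines, against 1.23% of all genes. It was Dsc3, at 6.35 to 53.5 CPM among PLA-line libraries and at most 0.0353 CPM among PL-line libraries. The leukocyte gene Ptprc was at 0 in all PLA-line libraries and at most 0.0264 CPM in the PL lines, and the myeloid adaptor Tyrobp was at 0 everywhere. The summed level of 15 myeloid markers still ran from 12.6 to 200.3 CPM among PLA-line libraries and from 18.8 to 206 CPM among PL-line libraries, with Cd14 as a large part of it. Lymphoid and endothelial markers summed to at most 1.42 and 2.64 CPM. The 8 fibroblast markers summed to 283 CPM in replicate 2 of PL1 and to at most 10.4 CPM in any other library. In that library Col1a1 alone made up 254 CPM, Dcn was at 10.7 CPM and Col3a1 at 8.48 CPM, while Col1a2 was at 0.176 CPM and Lum at 0.0176 CPM. In bulk RNA, fewer cells that express a gene and less RNA per cell cannot be told apart.

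**Figure D1:**
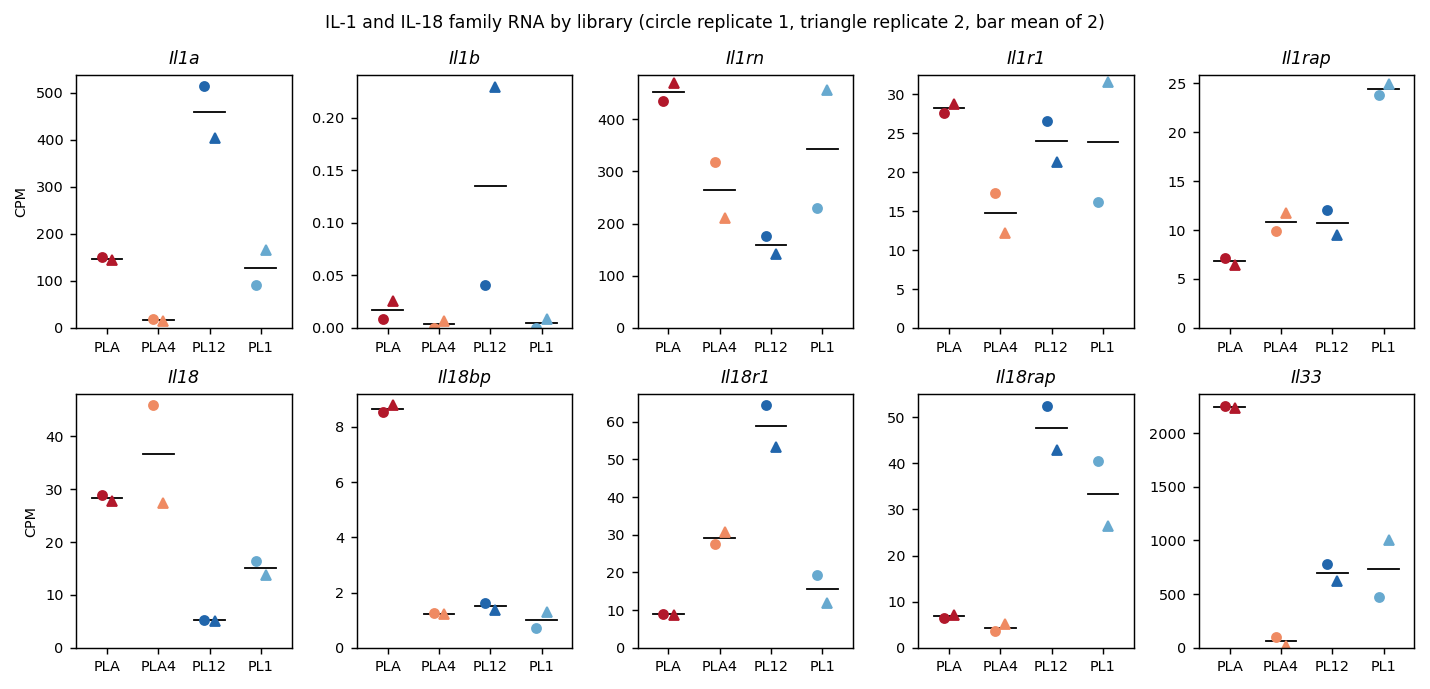
Level of each of the 10 members in CPM (linear axes from 0, one scale per gene) in the lines PLA, PLA4, PL12 and PL1, with a circle for replicate 1, a triangle for replicate 2 and a bar at their mean. Il18rap was at 3.57 to 7.19 CPM among PLA-line libraries and 26.3 to 52.5 CPM among PL-line libraries, Il18 was higher in the PLA lines, and Il33 and Il1a were lowest in PLA4.

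Between the PLA and PL lines, 2 members met the criterion used for a call, which is an adjusted p under 0.05 in the same direction in every one of the 4 pairings between the families (PLA or PLA4 over PL12 or PL1, edgeR's quasi-likelihood test on the 8 libraries, adjusted over 18648 genes). Il18 was called higher and Il18rap lower. Among all genes tested, 1.23% were called higher and 0.767% lower, 1.99% in either direction. The same 2 members were those in which no library of one family of lines reached into the range of the other, with 1 above and 1 below, against 8.57% and 7.16% of all genes, 15.7% in either direction. The median over the 9 tested members of the mean of the 4 log2 fold changes was -0.92, against 0.02 over all genes. With counts summed per line, so that 2 profiles stood against 2, edgeR called 0 of 9 members and 0% of 18859 genes, and 2 members and 4.60% of genes had an unadjusted p under 0.05. The median edgeR log2 fold change on these profiles was -0.15 over the members, against 0.04 over all genes. DESeq2 on the same profiles called 348 genes. An exact permutation test of 2 lines against 2 cannot give a two-sided p below 0.333, so each member is given with its values in every line.

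Il18 encodes the IL-18 precursor. It lies on chromosome 9 (50554827 to 50581840 on GRCm38, plus strand, ENSMUSG00000039217.13). It had 28.9 and 27.8 CPM in PLA and 45.9 and 27.5 CPM in PLA4, against 5.24 and 5.09 CPM in PL12 and 16.5 and 13.8 CPM in PL1. Every PLA-line library was above every PL-line library, and PL12 was lower than PL1. Line means averaged 32.5 ± 5.91 CPM over PLA and PLA4 and 10.2 ± 7.08 CPM over PL12 and PL1 (SD, n = 2 lines each), a 3.20-fold difference. The log2 fold change was 2.46 ± 0.26 for PLA over PL12 and 2.83 ± 0.26 for PLA4 over PL12 (SE, edgeR adjusted p = 0.0014 and 0.00109). Against PL1 it was smaller, at 0.90 ± 0.25 for PLA and 1.27 ± 0.25 for PLA4 (edgeR adjusted p = 0.0397 and 0.0343). The call in all 4 comparisons therefore turned on PL1, and it ended when any 1 library of PLA, PL12 or PL1 was left out, with a largest adjusted p of 0.0801 to 0.204 and a mean log2 fold change of 1.78 to 1.94. All lines share the estimate of spread between libraries, so leaving out a library of any line also changes the comparisons of other lines. Over all genes, fewer were called in PLA4 over PL1 when any 1 library of PLA or PL12 was left out. For Il18, both comparisons with PL12 passed in all 17 alternatives run. PLA4 and PLA did not differ beyond their spread (log2 fold change 0.37, adjusted p = 0.294), whereas Il18 was lower in PL12 than in PL1 (log2 fold change -1.55 ± 0.25, adjusted p = 0.00926). That last call ended without either library of PL12 (adjusted p = 0.0779 and 0.0813). On summed profiles the log2 fold change was 1.69 ± 0.63 with an edgeR adjusted p of 0.852 (unadjusted 0.0495). Squamous markers were also lowest in PL12, and their part in the low Il18 of that line was not tested. Bco2 overlaps Il18 on the opposite strand at 0.817 to 4.69 CPM. Whether the counting used strand is not stated, and reads in the overlap cannot be assigned.

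Il18rap encodes the accessory chain that completes the IL-18 receptor. It lies on chromosome 1 (40515362 to 40551705, plus strand, ENSMUSG00000026068.11). It had 6.43 and 7.19 CPM in PLA and 3.57 and 5.20 CPM in PLA4, against 52.5 and 42.8 CPM in PL12 and 40.4 and 26.3 CPM in PL1. The highest PLA-line library was thus below the lowest PL-line library, and the lines of each family were close to each other. Line means averaged 5.60 ± 1.72 CPM over PLA and PLA4 and 40.5 ± 10.1 CPM over PL12 and PL1 (SD, n = 2 lines each), 7.24-fold lower in the PLA lines. Il18rap fell in all 4 comparisons. The log2 fold change was -2.81 ± 0.29 for PLA and -3.44 ± 0.30 for PLA4 over PL12, and -2.29 ± 0.28 for PLA and -2.93 ± 0.29 for PLA4 over PL1 (SE). The largest edgeR adjusted p among the 4 was 0.00616, and under the 17 alternatives the largest was 0.041, so no single library decided the call. Neither PLA4 and PLA nor PL12 and PL1 differed beyond their spread (adjusted p = 0.128 and 0.213). On summed profiles the log2 fold change was -2.79 ± 0.45, with an unadjusted p of 0.0026 and an edgeR adjusted p of 0.852, and DESeq2 called it there (adjusted p = 5.86e-05).

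Il18r1 encodes the ligand-binding chain of the same receptor and is the neighbour of Il18rap on chromosome 1 (40465552 to 40500854, plus strand). It had 8.93 and 8.83 CPM in PLA and 27.4 and 30.7 CPM in PLA4, against 64.5 and 53.2 CPM in PL12 and 19.3 and 12.0 CPM in PL1. The families overlapped, since both PLA4 libraries lay above both PL1 libraries. Il18r1 fell in PLA relative to PL12 (log2 fold change -2.73 ± 0.25, adjusted p = 0.000937) and in PLA4 relative to PL12 (-1.02 ± 0.24, adjusted p = 0.0185). It also fell in PLA relative to PL1 (-0.81 ± 0.24, adjusted p = 0.0466), whereas for PLA4 over PL1 the log2 fold change was 0.90 ± 0.24 (adjusted p = 0.0676). Within families it was higher in PLA4 than in PLA (1.71 ± 0.24, adjusted p = 0.00497) and in PL12 than in PL1 (1.91 ± 0.24, adjusted p = 0.00436), all by edgeR. The call for PLA over PL1 ended without PLA replicate 1 or 2, PLA4 replicate 1, PL12 replicate 1 or 2, or PL1 replicate 1 (adjusted p = 0.0502 to 0.185), and the log2 fold change was -0.43 without PL1 replicate 1. It also ended with limma on log2(TPM + 1), at an adjusted p of 0.0529. The call for PLA4 over PL12 ended without PLA4 replicate 1 or either PL12 replicate (adjusted p = 0.0635 to 0.115), and that for PLA4 over PLA without either PLA replicate (adjusted p = 0.0502 and 0.0514).

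Il18bp encodes a secreted protein that binds and neutralises IL-18. It had 8.55 and 8.78 CPM in PLA and 1.25 and 1.22 CPM in PLA4, against 1.64 and 1.38 CPM in PL12 and 0.725 and 1.28 CPM in PL1. It was high in PLA alone, while PLA4 lay within the range of the PL lines. Il18bp was higher in PLA than in PL12 (log2 fold change 2.52 ± 0.35, adjusted p = 0.003), than in PL1 (3.11 ± 0.35, adjusted p = 0.00261), and lower in PLA4 than in PLA (-2.81 ± 0.35, adjusted p = 0.00352), by edgeR. The other 3 pairs of lines did not differ beyond their spread (adjusted p = 0.244 to 0.587). Il18bp (chromosome 7, 102014885 to 102018690, minus strand) overlaps Numa1, which lies on the opposite strand at 183 to 301 CPM, far above Il18bp itself, and the share of its counts that could come from Numa1 was not tested.

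**Figure D2:**
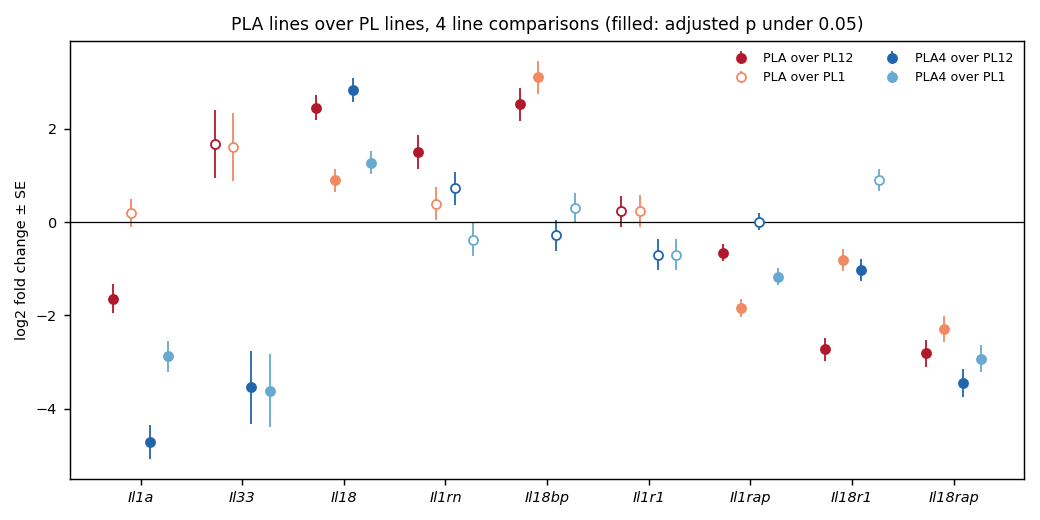
log2 fold change with its standard error for 9 members in the 4 pairings between the families (PLA over PL12, PLA over PL1, PLA4 over PL12, PLA4 over PL1), filled where the edgeR adjusted p was under 0.05. Il18 was above 0 and Il18rap below 0 in all 4, and for Il1a and Il33 the comparisons of PLA4 lay far below those of PLA.

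Il1a encodes IL-1 alpha. It lies on chromosome 2 (129299610 to 129309972, minus strand, ENSMUSG00000027399.1). It had 150.0 and 144 CPM in PLA and 20.1 and 14.9 CPM in PLA4, against 514 and 405 CPM in PL12 and 90.3 and 166 CPM in PL1. PL12 was highest and PLA4 lowest, while PLA lay inside the range of PL1, so the families overlapped. Il1a was 26.3-fold lower in PLA4 than in PL12 (log2 fold change -4.72 ± 0.36, edgeR adjusted p = 0.00066), 7.35-fold lower in PLA4 than in PL1 (-2.88 ± 0.33, edgeR adjusted p = 0.00926) and 8.43-fold lower in PLA4 than in PLA (-3.08 ± 0.33, edgeR adjusted p = 0.00244). It fell in PLA relative to PL12 (-1.64 ± 0.31, edgeR adjusted p = 0.00922) and was higher in PL12 than in PL1 (1.84 ± 0.32, edgeR adjusted p = 0.0109). The call for PLA over PL12 ended without either PLA replicate or PL12 replicate 1 (adjusted p = 0.0614 to 0.0649), and that for PL12 over PL1 without either PL12 replicate (adjusted p = 0.0566 and 0.0784). PLA over PL1 gave a log2 fold change of 0.20 ± 0.31 (adjusted p = 0.657). Gm14023 overlaps Il1a on the opposite strand at 0.524 to 4.25 CPM.

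Il1b, which encodes IL-1 beta, had almost no reads. Its counts were 1 and 3 in PLA and 0 and 1 in PLA4, against 2 and 25 in PL12 and 0 and 1 in PL1. Replicate 2 of PL12 gave 25 of the 33 counts, at 0.230 CPM. In the other 7 libraries it was at or below the floor of 3 counts, and no fold change is given. Il1bos overlaps Il1b on the opposite strand at 0 to 0.138 CPM, with a mean of 0.130 CPM in PL12. Reads in the overlap cannot be assigned.

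Il33 encodes the nuclear alarmin IL-33 and had the highest mean TPM (transcript abundance scaled to length and library) of the members. It lies on chromosome 19 (29925114 to 29960718, plus strand, ENSMUSG00000024810.16). It had 2251 and 2239 CPM in PLA and 100.4 and 20.0 CPM in PLA4, against 784 and 619 CPM in PL12 and 469 and 1001 CPM in PL1. The PLA lines thus held both the highest and the lowest libraries, with the PL lines between them. Il33 was 37.3-fold lower in PLA4 than in PLA (log2 fold change -5.22 ± 0.84, edgeR adjusted p = 0.00743). It was also lower in PLA4 than in PL12 (-3.54 ± 0.78, edgeR adjusted p = 0.0155) and than in PL1 (-3.61 ± 0.78, edgeR adjusted p = 0.043). PLA over PL12 and over PL1 gave 1.68 ± 0.72 and 1.61 ± 0.72, which did not pass (edgeR adjusted p = 0.114 and 0.141). The 2 PLA4 libraries differed 5.01-fold, and without PLA4 replicate 1 the log2 fold change was -6.81 over PLA, -5.12 over PL12 and -5.20 over PL1, while without PLA4 replicate 2 it was -4.42, -2.80 and -2.86. All of these passed. The call for PLA4 over PL1 ended without any 1 library of PLA or PL12, although those lines are not part of that comparison. Its log2 fold change was then little changed, at -3.60 and -3.59 without PLA replicate 1 and 2 and -3.61 without PL12 replicate 1. The same call ended without PL1 replicate 2 (log2 fold change -2.95), and that for PLA4 over PL12 ended without either PL12 replicate. The sign of a family difference depended on how the lines were combined, since the mean of the 4 log2 fold changes was -0.97 and the log2 fold change of summed profiles was 0.70 ± 1.53 (adjusted p = 0.943).

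Il1rn encodes the antagonist that occupies IL1R1. It had 435 and 469 CPM in PLA and 318 and 209.9 CPM in PLA4, against 177 and 142 CPM in PL12 and 230.1 and 456 CPM in PL1. The families overlapped, and PL12 held the 2 lowest libraries. Il1rn was higher in PLA than in PL12 (log2 fold change 1.51 ± 0.36, edgeR adjusted p = 0.0192), a call that ended without any 1 library of PLA or PL12 (adjusted p = 0.0827 to 0.123). No other pair of lines passed (adjusted p = 0.0678 to 0.521). Il1r1, the signalling receptor for IL-1, had 27.6 and 28.8 CPM in PLA and 17.3 and 12.1 CPM in PLA4, against 26.6 and 21.4 CPM in PL12 and 16.2 and 31.6 CPM in PL1. Its libraries covered a narrow range with overlapping families, and edgeR called 0 of its 6 pairs of lines (adjusted p = 0.0816 to 0.996).

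Il1rap, the accessory chain shared by the IL-1 and IL-33 receptors, had 7.17 and 6.42 CPM in PLA and 9.93 and 11.7 CPM in PLA4, against 12.0 and 9.50 CPM in PL12 and 23.8 and 24.9 CPM in PL1. Both PL1 libraries were higher than all others, both PLA libraries were lower than all others, and PLA4 and PL12 overlapped. Il1rap fell in PLA relative to PL1 (log2 fold change -1.84 ± 0.19, edgeR adjusted p = 0.00191), in PLA4 relative to PL1 (-1.17 ± 0.18, edgeR adjusted p = 0.0206) and in PLA relative to PL12 (-0.66 ± 0.18, edgeR adjusted p = 0.0319), but not in PLA4 relative to PL12 (0.01 ± 0.18, edgeR adjusted p = 0.978). It was higher in PLA4 than in PLA (0.67 ± 0.18, edgeR adjusted p = 0.0374) and lower in PL12 than in PL1 (-1.18 ± 0.18, edgeR adjusted p = 0.00824). The calls for PLA over PL12 (adjusted p = 0.0591 to 0.183) and for PLA4 over PL1 (adjusted p = 0.0582 to 0.0759) ended without any 1 library of PLA or PL12. The call for PLA4 over PLA ended without any 1 library of those lines except PLA4 replicate 1, and without either PL12 replicate (adjusted p = 0.0569 to 0.186). That for PL12 over PL1 ended without PL12 replicate 2 (adjusted p = 0.0714). Without the filter on low counts, the calls for PLA over PL12 and PLA4 over PLA ended as well (edgeR adjusted p = 0.0759 and 0.0709), and so they did with limma on log2 TPM. PLA over PL1 passed in all 17 alternatives.

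Counted over the 6 pairs of lines, which share lines and so are not independent, 31 of 54 tests of the members passed. In PLA over PL12, 3 members were higher and 4 lower, where 20.4% of all genes were called higher and 17.3% lower (37.7% together). In PLA4 over PL12, 1 was higher and 4 lower, with 19.2% and 16.8% of all genes (36.0%). In PLA over PL1, 2 were higher and 3 lower, with 14.4% and 13.0% of all genes (27.3%), and in PLA4 over PL1, 1 was higher and 4 lower, with 4.61% and 3.93% of all genes (8.54%). Within families, 2 were higher and 3 lower in PLA4 over PLA, with 14.1% and 14.9% of all genes (29.0%), and 2 were higher and 2 lower in PL12 over PL1, with 11.2% and 12.5% of all genes (23.7%). The p-values were adjusted over all genes within each pair and not over the 6 pairs.

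**Figure D3:**
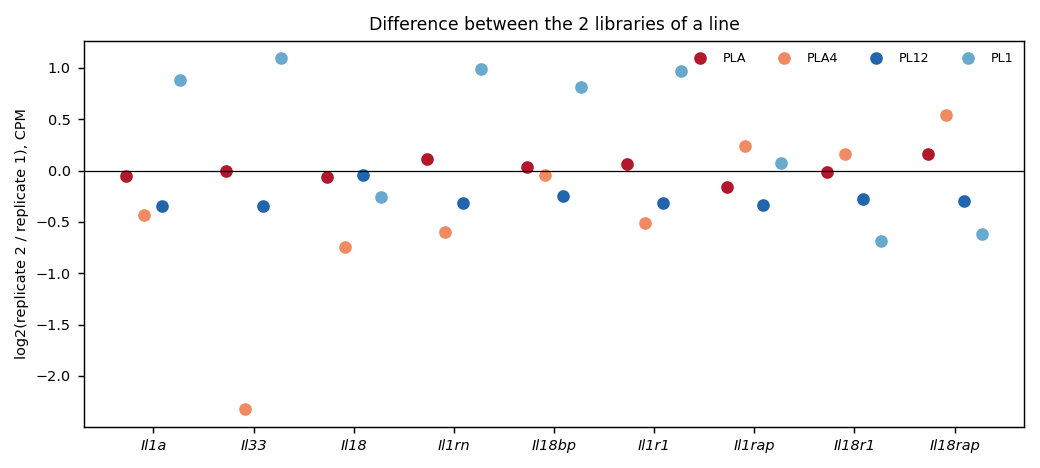
log2 ratio of replicate 2 to replicate 1 in CPM for 9 members, with one colour per line (PLA, PLA4, PL12, PL1). The points of PLA lie near 0, those of PL1 are above 0 for the IL-1 members and below 0 for Il18, Il18r1 and Il18rap, and the lowest point is Il33 in PLA4.

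The libraries of one line did not vary equally. Between the 2 libraries, the 9 tested members differed by 1.01 to 1.12-fold in PLA and by 1.03 to 5.01-fold in PLA4, against 1.03 to 1.27-fold in PL12 and 1.05 to 2.14-fold in PL1. The difference was over 1.5-fold for 3 members in PLA4 and 7 in PL1, and for 0 members in PLA or PL12. Within PL1, Il1a, Il1rn, Il1r1, Il18bp and Il33 were higher in replicate 2, while Il18, Il18r1 and Il18rap were higher in replicate 1. Replicate 2 of PL1 also held the fibroblast markers given above, most of them Col1a1 RNA, and their part in these differences was not tested.

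Levels can be compared between members in TPM. Averaged over the 4 lines, Il33 stood at 586 TPM and Il1rn at 517 TPM, followed by Il1a at 151 TPM and Il18 at 45.8 TPM. The receptor chains were lower, with Il18r1 at 17.2 TPM, Il18rap at 7.37 TPM, Il1r1 at 7.30 TPM and Il1rap at 4.72 TPM, and Il18bp stood at 3.42 TPM. The order of Il33 and Il1rn was not the same in every line. In PLA4 Il33 averaged 37.2 TPM and Il1rn 443 TPM, and in PL1 Il33 averaged 470 TPM and Il1rn 586 TPM. Il33 was above Il1rn in PLA, at 1420 against 778 TPM, and in PL12, at 418 against 260 TPM.

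Ratios of TPM within a library set a ligand beside its antagonist and a binding chain beside its accessory chain. These ratios were chosen after their values were seen and are given without a test. Il1rn over Il1a was 5.99 and 6.73 in PLA and 34.0 and 27.2 in PLA4, against 0.676 and 0.776 in PL12 and 5.10 and 5.64 in PL1. The antagonist RNA thus exceeded the ligand RNA in every library but those of PL12, and the ratio differed at most 1.25-fold between libraries of a line and 42.2-fold between lines. Il18rap over Il18r1 was 0.343 and 0.389 in PLA and 0.0757 and 0.0896 in PLA4, against 0.410 and 0.435 in PL12 and 1.07 and 1.13 in PL1. The accessory chain was the scarcer RNA in all libraries except those of PL1, and the values of PLA lay close to those of PL12. Il18 over Il18bp was 6.15 and 5.77 in PLA and 84.3 and 64.6 in PLA4, against 7.30 and 8.64 in PL12 and 61.6 and 26.1 in PL1. Here PLA lay beside PL12 and PLA4 beside PL1, so the families overlapped. Il1rap over Il1r1 was 0.301 and 0.256 in PLA and 0.634 and 1.08 in PLA4, against 0.508 and 0.515 in PL12 and 1.65 and 0.849 in PL1.

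**Figure D4:**
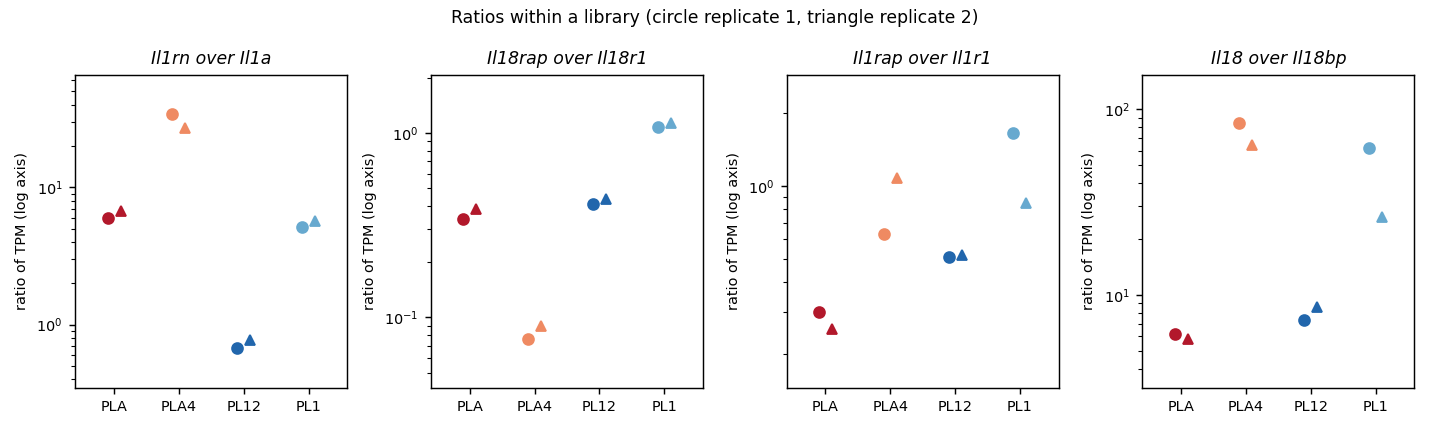
Ratios of TPM within each library on log axes, for antagonist over ligand (Il1rn over Il1a), accessory over binding chain (Il18rap over Il18r1, Il1rap over Il1r1) and ligand over binding protein (Il18 over Il18bp), in the lines PLA, PLA4, PL12 and PL1. Il1rn over Il1a spans 0.676 in PL12 to 34.0 in PLA4, and its 2 values within a line differ at most 1.25-fold.

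The other receptors and ligands of the family were described from a list of 11 genes. Of these, 8 were tested and 0 were called between the PLA and PL lines by edgeR, against 1.99% of all genes. Il1rl1, which encodes the IL-33 receptor ST2, had 0.967 and 0.559 CPM in PLA and 6.44 and 23.1 CPM in PLA4, against 0.778 and 0.505 CPM in PL12 and 10.3 and 7.95 CPM in PL1. It was low in PLA, the line with the highest Il33, and in PL12, and high in PLA4, the line with the lowest Il33, and in PL1. It was higher in PLA4 than in PLA (log2 fold change 4.27 ± 0.69, edgeR adjusted p = 0.00748) and than in PL12 (4.54 ± 0.71, edgeR adjusted p = 0.00512), and lower in PLA than in PL1 (-3.58 ± 0.67, edgeR adjusted p = 0.0125). Il1rl1 was also lower in PL12 than in PL1 (-3.85 ± 0.69, edgeR adjusted p = 0.0123), although Il33 averaged 701 and 735 CPM in these lines. Il1r2, the decoy receptor of IL-1, was at most 0.388 CPM. Sigirr, an inhibitory receptor, had 10.1 and 9.52 CPM in PLA and 2.69 and 0.353 CPM in PLA4, against 20.3 and 21.4 CPM in PL12 and 1.47 and 4.21 CPM in PL1. Il1rl2, the IL-36 receptor, had 5.63 and 5.26 CPM in PLA and 1.94 and 0.388 CPM in PLA4, against 0.0819 and 0.0368 CPM in PL12 and 0.771 and 2.51 CPM in PL1. Il1f6, which encodes the IL-36 alpha ligand, was highest where this receptor was lowest, at 14.6 and 16.2 CPM in PL12.

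**Figure D5:**
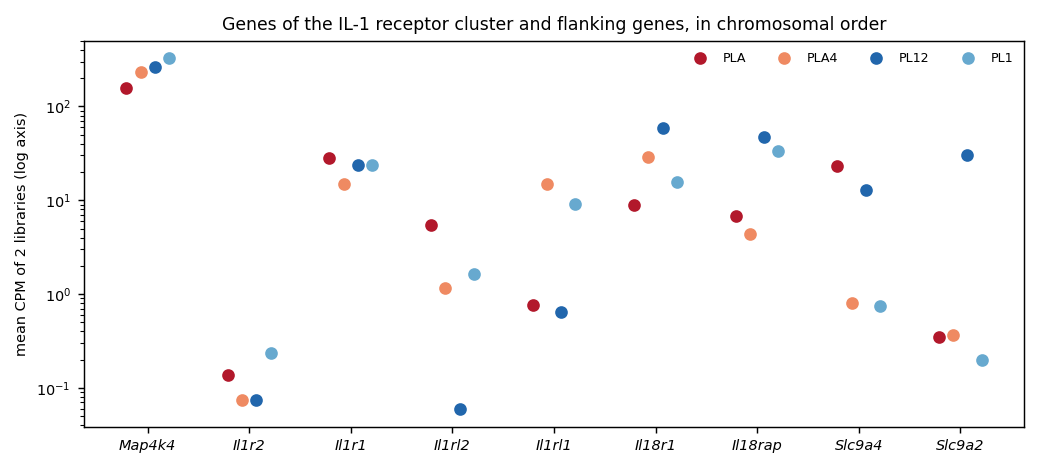
Mean CPM of the 2 libraries of each line (PLA, PLA4, PL12, PL1; log axis) for genes of the IL-1 receptor cluster on mouse chromosome 1 and flanking genes, in chromosomal order. Il18rap separates the PLA lines from the PL lines, and its neighbours Il18r1, Il1rl1 and Slc9a4 do not.

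Il1r1, Il18r1 and Il18rap lie together in a cluster on chromosome 1 with Il1r2, Il1rl2 and Il1rl1, whereas Il1rap lies on chromosome 16. Of 14 annotated genes in and beside this cluster 9 were tested, and Il18rap was the 1 called between the PLA and PL lines. Among all genes, 1.99% were called. On the far side of Il18rap, the sodium-proton exchanger gene Slc9a4 averaged 23.1 CPM in PLA and 0.794 CPM in PLA4, against 12.8 CPM in PL12 and 0.755 CPM in PL1. Slc9a2 averaged 0.350 CPM in PLA and 0.362 CPM in PLA4, against 30.1 CPM in PL12 and 0.197 CPM in PL1. In the chromosome 2 clusters with Il1rn and with Il1a and Il1b, 7 of 14 and 6 of 10 genes were tested, and 0 were called.

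Among all genes tested, 1.23% were called higher between the PLA and PL lines and 0.767% lower, with a median log2 fold change of 0.02. Genes for maturation and release were described from 23 inflammasome, caspase, gasdermin and protease genes, of which 17 were tested. Of these, 0 were called higher and 1 lower, with a median log2 fold change of -0.42. The 1 was Casp8, an initiator caspase that can also cleave IL-1 beta, at 58.7 and 56.3 CPM in PLA and 66.6 and 54.0 CPM in PLA4, against 92.6 and 78.1 CPM in PL12 and 104 and 92.4 CPM in PL1 (largest edgeR adjusted p = 0.0444). Casp1, whose product cleaves pro-IL-18, had 23.5 and 23.5 CPM in PLA and 37.7 and 18.5 CPM in PLA4, against 7.06 and 5.81 CPM in PL12 and 14.3 and 16.5 CPM in PL1. Like Il18 it was lowest in PL12, relative to which it rose in PLA (log2 fold change 1.87 ± 0.33, edgeR adjusted p = 0.00718) and in PLA4 (2.13 ± 0.34, edgeR adjusted p = 0.00528), but relative to PL1 neither PLA nor PLA4 passed (edgeR adjusted p = 0.199 and 0.139). Gsdmd, the pore-forming gasdermin D, had 48.9 and 48.4 CPM in PLA and 3.70 and 0.111 CPM in PLA4, against 29.7 and 30.8 CPM in PL12 and 8.17 and 15.7 CPM in PL1, and was lower in PLA4 than in PLA (-4.68 ± 1.32, edgeR adjusted p = 0.0414). Of the 21 signalling genes, all 21 were tested and 0 called, with a median of -0.03. Myd88, the shared adaptor, had 24.2 and 24.2 CPM in PLA and 12.5 and 11.8 CPM in PLA4, against 19.2 and 20.5 CPM in PL12 and 16.3 and 22.3 CPM in PL1. Of 28 genes known to respond to IL-1, all 28 were tested and 0 called, against 1.99% of all genes in either direction. Of these 28, 5 had a positive mean log2 fold change, with a median of -1.17. Their summed level overlapped between the families, at 5603 and 5533 CPM in PLA and 1209 and 1307 CPM in PLA4. It was 12039 and 11907 CPM in PL12 and 3058 and 6181 CPM in PL1. The chemokine gene Cxcl5 was the largest part of the sum in each line. It averaged 2425 CPM in PLA and 584 CPM in PLA4, against 6637 CPM in PL12 and 2017 CPM in PL1. Ptgs2, which encodes the inducible cyclooxygenase, had 215 and 210.0 CPM in PLA and 29.7 and 42.9 CPM in PLA4, against 1036 and 890 CPM in PL12 and 211 and 526 CPM in PL1. As for Il1a, both PL12 libraries were highest and both PLA4 libraries lowest. Nfkbia, Mmp3 and Tnf, also from this list, had other orders. Nfkbia averaged 264 CPM in PLA and 79.5 CPM in PLA4, against 93.8 CPM in PL12 and 125 CPM in PL1. Mmp3 was highest in replicate 2 of PL1, at 2.75 CPM, but lay below the floor of 3 counts in replicate 1, at 0.0115 CPM. In PL12 it was at 0.205 and 0.259 CPM. Tnf was lowest in PL12, at a mean of 1.57 CPM. The interferon-gamma side of IL-18 signalling was given by 5 genes, of which 3 were tested and 0 called.

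The genes whose pattern over the 8 libraries was most like each member were taken by Pearson's r of log2(CPM + 1) among 5320 variable genes. The points share their line and library, so r is a description. For Il18 they were Pla2r1, Mpst and Sema5a (r = 0.994, 0.993 and 0.991), and for Il18rap Tarbp1, Plod2 and Donson (r = 0.996, 0.993 and 0.988). For Il18bp they were Itgam, Stx18 and H2-Q7 (r = 0.997, 0.996 and 0.995), and for Il33 Ccl9, Ncmap and Akirin1 (r = 0.994, 0.993 and 0.992). For Il1a they were Clcn5, Rasa2 and Ipo5 (r = 0.994, 0.988 and 0.987), for Il1rn Ern1, Fmo2 and Mx1 (r = 0.993, 0.982 and 0.979), and for Il18r1 Nln, Syt13 and Kcnf1 (r = 0.995, 0.987 and 0.977). For Il1r1 they were Gm42427, Gde1 and Naip5 (r = 0.977, 0.971 and 0.971), and for Il1rap Hdlbp, Slamf9 and Gm2115 (r = 0.971, 0.969 and 0.960). Itgam is also a myeloid marker, and it averaged 49.8 CPM in PLA and 0.583 CPM in PLA4, against 0.841 CPM in PL12 and 0.475 CPM in PL1, while Ptprc and Tyrobp were at 0 in PLA.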

How the data were processed

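Bulk RNA-seq of 4 mouse LUSC lines with 2 libraries each was analysed. Per the labels' protocols, total RNA was column-purified, cDNA was made with a SMARTer kit and tagmented with Nextera XT. Expected counts (estimated, not always whole) and TPM per gene were deposited by the authors, per the file headers. The tools were STAR, RSEM, FastQC and DESeq2 on GRCm38, per the submitters' processing notes. Their versions, the annotation release and the strand setting are not given in the sources used here. Of the deposited expected counts, 14.2% were not whole (tolerance 1e-09), and all were rounded to whole numbers before tests.

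Single libraries were tested with edgeR 4.0.16 (quasi-likelihood, TMM, filterByExpr with minimum count 10 and minimum total count 15, 1 mean per line, 4 residual degrees of freedom, limma 3.58.1, R 4.3.3) and summed profiles with 2 per family. Adjusted p is by Benjamini-Hochberg over all genes, with a threshold of 0.05, and tests were checked on simulated data. The simulation had the same dispersion in all libraries and no difference between lines of a family. It therefore does not cover the unequal spread and the line differences of these data. CPM values use TMM-scaled library sizes, and TPM was used for levels between genes. Floors cover counting error only. Alternatives were DESeq2 1.42.0, its size factors, other filters, limma on log2 TPM with a pseudocount of 1 or 0.1, a replicate block and leaving out libraries or lines. Coordinates are from GENCODE mouse release 21 on GRCm38 (54349 identifiers matched with version), and promoters from RefSeq.

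All 10 members were named, with at most 4 genes a list by smallest largest adjusted p over the 4 line comparisons, genes needed for a role, up to 4 genes of each cluster, Ackr3 and 3 pattern neighbours a member. Members and lists were chosen with earlier results of these data known. Il1r2, Il1rl1, Sigirr, Casp1, Gsdmd and Myd88 were named for their roles, and Cxcl5 as the largest part of a sum.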

Additional observations from a re-analysis of the deposited data

How the results depend on the processing

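For the PLA lines against the PL lines, 372 genes passed all 4 comparisons, 831 with DESeq2 and 36 to 2446 when 1 or 2 libraries were left out. Leaving out libraries gave 1 to 2 called members (otherwise 2) and 18 to 46 passing pair tests of 54 (otherwise 31). On summed profiles, 0 genes were called, 348 with DESeq2, 1 without a filter and 0 in every run that left out a replicate or line. The replicate numbers were not used as pairs in the main fit. Deviations of same-numbered libraries correlated at -0.194 to 0.0149 between lines. Such correlations cannot exclude that same-numbered libraries were prepared together, since differences particular to a line could mask it. With the replicate number as a block, 132 genes were called, Il18rap was the 1 member called, Il18 was not (largest edgeR adjusted p = 0.0515), and 25 pair tests passed. Calls over all 18648 genes also fell in each pair, from 7035 to 5952 in PLA over PL12 and from 1593 to 547 in PLA4 over PL1. Signs reversed for Il1r1, with a mean log2 fold change of 0.0224 without PL1 replicate 2 (otherwise -0.23, -0.43 to 0.0224 without 1 library). On summed profiles they reversed for Il1r1 (0.23 without PLA4, and -0.34 to 0.12 without 1 library, 0.12 being without PL1 replicate 2, otherwise -0.15), Il18bp (-0.0224 without PLA, otherwise 2.00), Il33 (-3.64 without PLA, otherwise 0.70) and Il18r1 (0.33 without PL12, otherwise -0.93). The causes were not tested. With 2 lines a family, any difference between families is confounded with the lines themselves. At 33 counts over all libraries, Il1b was not tested.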

Other observations

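Pycard, which encodes the inflammasome adaptor ASC, was singled out after its values were seen. It had 3.88 and 3.14 CPM in PLA and 26.5 and 69.9 CPM in PLA4, against 0.252 and 0.167 CPM in PL12 and 0.260 and 2.30 CPM in PL1. It was higher in PLA4 than in PL12 (log2 fold change 7.91 ± 1.21), PL1 (5.22 ± 1.04) and PLA (3.78 ± 0.96), with edgeR adjusted p of 0.00484, 0.0354 and 0.0303. PLA4, the line with the most Pycard, was also the line with the least Gsdmd.

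Aim2, a DNA-sensing inflammasome receptor, had 16.0 and 15.3 CPM in PLA and 0.116 and 0.0831 CPM in PLA4, against 1.53 and 1.36 CPM in PL12 and 0.0690 and 3.79 CPM in PL1. The families overlapped, and PLA held the highest libraries.

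Tnf, which encodes an inflammatory cytokine that IL-1 can induce, had 54.6 and 53.5 CPM in PLA and 12.9 and 6.97 CPM in PLA4, against 1.74 and 1.40 CPM in PL12 and 15.1 and 25.3 CPM in PL1. It rose in PLA relative to PL12 (log2 fold change 5.11 ± 0.42) and PL1 (1.42 ± 0.36) and in PLA4 relative to PL12 (2.67 ± 0.38), with edgeR adjusted p of 0.000776, 0.0305 and 0.00388, whereas PLA4 over PL1 gave -1.02 ± 0.35 (adjusted p = 0.121). PL12 thus held the highest Il1a and the lowest Tnf of the 4 lines.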
